A study of Mus musculus with 14 samples.

Results

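The genes described here are 52 genes of mitosis and the spindle, measured by RNA sequencing in mouse HPC-LSK lines with or without Cdk6 and with or without the oncogene BCR-ABL p210. The set was defined by gene symbol, without a threshold on any measured value. However, it was chosen with earlier results of these data known, as were the other gene lists used below. Its counts beside the shares of all genes are therefore a description. All 52 were found among the 50686 genes of the deposited tables, and all 52 passed the filter on low counts that left 14512 genes, with no member under 243 counts in any library. Each gene was placed in 1 of 10 roles, from the kinases and cyclins that start mitosis to the condensins that compact chromosomes.

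HPC-LSK lines are cultured progenitor lines with the surface profile of early bone marrow cells, that is, Kit and Sca-1 present and lineage markers absent. As background, lines of this type carry an introduced Lhx2, a LIM homeobox factor that keeps them growing. The groups were KO p210 (Cdk6 knockout, transformed with BCR-ABL p210, 4 libraries), WT p210 (Cdk6 wild type, transformed, 3 libraries), KO untransformed (3 libraries) and WT untransformed (4 libraries), all on the C57BL/6N strain background per the labels. By the growth protocol, untransformed cells received 12.5 ng/ml IL-6 and 2% SCF, whereas p210 cells grew without either cytokine. The sample descriptions of the p210 libraries nevertheless carry the letters SCF, so their medium is uncertain. Where medium differed as the protocol says, transformation and medium cannot be told apart. The labels do not name the knockout allele. They also leave unsaid whether the replicates of a group were separate derivations, and p-values here reflect only how much these samples scatter. The knockout and wild-type lines are compared before and after transformation, and the transformed and untransformed lines within each genotype.

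As background, a cell enters mitosis when cyclin B binds and activates Cdk1, after Cdc25 phosphatases remove inhibitory phosphates and the kinases Plk1 and Aurora A reinforce the switch. Kinesins and microtubule-binding proteins then build the spindle, kinetochores attach chromosomes to it, and the spindle checkpoint holds the anaphase-promoting complex (APC/C) in check until every chromosome is attached. Most of these genes are transcribed in waves late in the cell cycle under the MuvB complex with B-Myb (Mybl2) and FoxM1, while the related DREAM complex keeps them low in resting cells. Cdk6 is a cyclin D-dependent kinase of G1 phase.

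Promoters of this set are known for a pair of short elements, the CHR (cell cycle genes homology region, TTTGAA) and the CCAAT box. RefSeq promoter windows of GRCm38.p6, each 250 bases before to 50 bases after a transcription start, were available for 44 of the 52 genes. Windows were not at hand for Smc4, Kif20a, Incenp, Tpx2, Aurkb, Foxm1, Ccna2 and Cdc25c. The windows of 5 genes on which the results below turn are shown 5′ to 3′ on the gene's own strand, with every CHR and CCAAT box on either strand in capitals, so that TTCAAA and ATTGG are matches on the opposite strand.
Ccnb1, chr13:100786437-100786736, minus strand: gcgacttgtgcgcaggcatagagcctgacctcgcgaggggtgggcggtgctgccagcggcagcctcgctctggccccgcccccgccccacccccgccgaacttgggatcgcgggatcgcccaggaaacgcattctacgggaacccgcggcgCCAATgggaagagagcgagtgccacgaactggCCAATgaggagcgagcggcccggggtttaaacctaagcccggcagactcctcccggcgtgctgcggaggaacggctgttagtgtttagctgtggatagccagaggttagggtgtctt
Cdk1, chr10:69352863-69353162, minus strand: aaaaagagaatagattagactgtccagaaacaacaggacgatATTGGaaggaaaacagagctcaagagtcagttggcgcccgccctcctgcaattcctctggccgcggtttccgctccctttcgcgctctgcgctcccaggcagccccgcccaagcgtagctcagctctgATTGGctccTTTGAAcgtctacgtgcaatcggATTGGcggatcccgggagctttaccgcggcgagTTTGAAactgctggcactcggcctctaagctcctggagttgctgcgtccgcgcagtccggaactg
Kif14, chr1:136467598-136467897, plus strand: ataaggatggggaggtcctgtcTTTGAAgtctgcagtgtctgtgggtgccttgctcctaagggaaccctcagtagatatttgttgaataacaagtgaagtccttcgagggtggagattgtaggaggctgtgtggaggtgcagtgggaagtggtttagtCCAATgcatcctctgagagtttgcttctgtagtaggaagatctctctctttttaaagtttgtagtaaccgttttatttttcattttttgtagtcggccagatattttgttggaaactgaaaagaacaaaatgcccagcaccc
Top2a, chr11:99024140-99024439, minus strand: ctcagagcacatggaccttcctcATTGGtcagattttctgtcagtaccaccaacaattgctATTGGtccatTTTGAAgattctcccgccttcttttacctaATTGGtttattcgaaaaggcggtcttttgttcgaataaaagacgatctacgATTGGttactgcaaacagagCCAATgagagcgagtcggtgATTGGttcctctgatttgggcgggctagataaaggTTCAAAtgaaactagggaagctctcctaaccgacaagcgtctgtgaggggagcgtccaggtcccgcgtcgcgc
Aurka, chr2:172370521-172370820, minus strand: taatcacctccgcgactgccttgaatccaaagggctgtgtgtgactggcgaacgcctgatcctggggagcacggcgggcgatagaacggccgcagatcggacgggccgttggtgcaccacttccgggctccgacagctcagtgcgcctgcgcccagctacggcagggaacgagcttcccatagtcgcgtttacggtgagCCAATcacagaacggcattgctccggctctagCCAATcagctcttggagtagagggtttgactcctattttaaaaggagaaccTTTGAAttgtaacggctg
Ccnb1 and Cdk1 encode the mitotic kinase itself, Top2a was among the genes with the smallest adjusted p in untransformed cells, Kif14 was called in opposite directions with p210 in the 2 genotypes, and Aurka rose with p210 in both. Their windows differed in what they held. The Ccnb1 window had CCAAT boxes at -99 and -67 and no TTTGAA on either strand. Only this form of the CHR was searched for, so other forms are not excluded. The Cdk1 window had a CHR at -71 and another at -15, Top2a had one at -179 and one at -23, Kif14 had a CHR at -228, and the CHR of Aurka lay downstream of the start, at 33. The Kif14 window, from 136467598, lies wholly inside the gene as counted, which runs from 136466343 to 136531511. Its RefSeq start is thus downstream of the start of the counted gene.

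Counted on both strands, 32 of the 44 genes (72.7%) had a CHR in a window, against 20.2% of the 27025 genes with a window and 14.7% of the 10462 that were also tested. A CCAAT box was in the windows of 33 (75.0%), against 41.1% and 42.8%. Both elements together were in 28 (63.6%), against 7.97% and 6.05%. An E2F-like element, TTCCCGC, was in 2 (4.55%), against 5.29% and 9.69%. In 2 windows of the set, matches shared bases. The windows of Mybl2, Mad2l1, Birc5, Nuf2, Nusap1, Pttg1 and Ncaph held neither a CHR nor a CCAAT box, which says only that these letters are not in those 300 bases. The CHR share was 69.6% (16 of 23) for genes that were lower in untransformed KO cells and 76.2% (16 of 21) for those that were not called there.

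Total counts were 20270348 to 50303271 per library, with 18105 to 20689 genes detected. Cdk6 was at 325, 577, 245 and 163 CPM in KO p210, 576, 606 and 597 CPM in WT p210, 271, 257 and 236 CPM in KO untransformed and 970, 999, 1212 and 1305 CPM in WT untransformed libraries. KO untransformed libraries thus kept 22.7% of the WT mean (log2 fold change -2.14 ± 0.34, adjusted p = 0.00573). KO p210 libraries had 55.3% of the WT p210 mean, a difference that did not pass (-0.86 ± 0.31, adjusted p = 0.147). Against its label, the library labelled KO p210 replicate 2 had a WT p210 level of Cdk6, and the main counts that rest on KO p210 are also given with it left out. The labelled cell type was checked on 13 progenitor markers, which had counts in every library of KO untransformed, WT p210 and WT untransformed cells, while 12 had counts in every KO p210 library. Kit, a receptor by which this cell type is defined, averaged 31.3 CPM in KO p210, 45.5 CPM in WT p210, 259 CPM in KO untransformed and 431 CPM in WT untransformed libraries, and every p210 library was below every untransformed one. Ly6a (Sca-1) averaged 10.9 CPM in KO p210 (0.553 CPM in the lowest library), 12.7 CPM in WT p210, 31.8 CPM in KO untransformed and 51.7 CPM in WT untransformed libraries. The stem cell genes Hlf and Mecom were near 0 in KO p210, at 0.190 and 0.223 CPM. The p210 libraries were thus below the untransformed ones in Kit and, on average, in Sca-1, markers that give the cell type its name. Other markers of the list went the other way. Of the 13, 6 had a log2 fold change above 0 with p210 in WT lines and 4 in KO lines. Gata2 averaged 510 CPM in KO p210, 825 CPM in WT p210, 204 CPM in KO untransformed and 368 CPM in WT untransformed libraries. Mecom averaged 41.7 CPM in WT p210 and 21.7 CPM in WT untransformed libraries. Markers of other blood cells moved with the groups. The summed level of 12 myeloid markers was 6815 to 21894 CPM in KO p210, 1877 to 6891 CPM in WT p210, 22997 to 31736 CPM in KO untransformed and 308 to 10190 CPM in WT untransformed libraries, the lowest being WT untransformed replicate 3, and of the list Ly6g had no count in any group but KO p210. The summed level of 7 megakaryocyte markers was 1229 to 1833 CPM in KO p210, 1536 to 2675 CPM in WT p210, 986 to 1611 CPM in KO untransformed and 2302 to 6041 CPM in WT untransformed libraries. The summed level of 6 mast cell and basophil markers was 6903 to 10140 CPM in KO p210, 3911 to 13111 CPM in WT p210, 2556 to 2845 CPM in KO untransformed and 1212 to 5936 CPM in WT untransformed libraries. Among them Mcpt8, a basophil protease, averaged 2512 CPM in KO p210, 3407 CPM in WT p210, 305 CPM in KO untransformed and 51.6 CPM in WT untransformed libraries. Its rise was not shared by the whole list. Of the 6, 2 had a log2 fold change above 0 with p210 in WT lines and 3 in KO lines. Fcer1a averaged 315 CPM in KO p210, 830 CPM in WT p210, 736 CPM in KO untransformed and 1441.5 CPM in WT untransformed libraries. The part of these cell types in the results below was not tested, and in bulk RNA fewer cells in mitosis and less RNA per cell cannot be told apart.

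Per length of transcript, the set spanned a wide range of levels. Top2a, which untangles DNA, was highest with a mean of 287 TPM over the 14 libraries, followed by Ccnb2 (276 TPM), the condensin subunit Ncapd2 (224 TPM) and Cdc20 (198 TPM). Kif14 was lowest at 14.7 TPM, after Cenpf (20.0 TPM) and Anln (21.0 TPM). All further levels are counts per 1000000 (CPM) on TMM-scaled library sizes. Summed over the 52 genes, the level was 5361, 6365, 7186 and 6025 CPM in KO p210, 6660, 6642 and 5660 CPM in WT p210, 5645, 5648 and 6243 CPM in KO untransformed and 7522, 7845, 8861 and 7612 CPM in WT untransformed libraries. The 4 WT untransformed libraries were thus above each of the other 10. WT untransformed replicate 3 was the highest, and the spread among KO p210 libraries, 759 CPM (SD), was the widest of the groups.

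**Figure D1:**
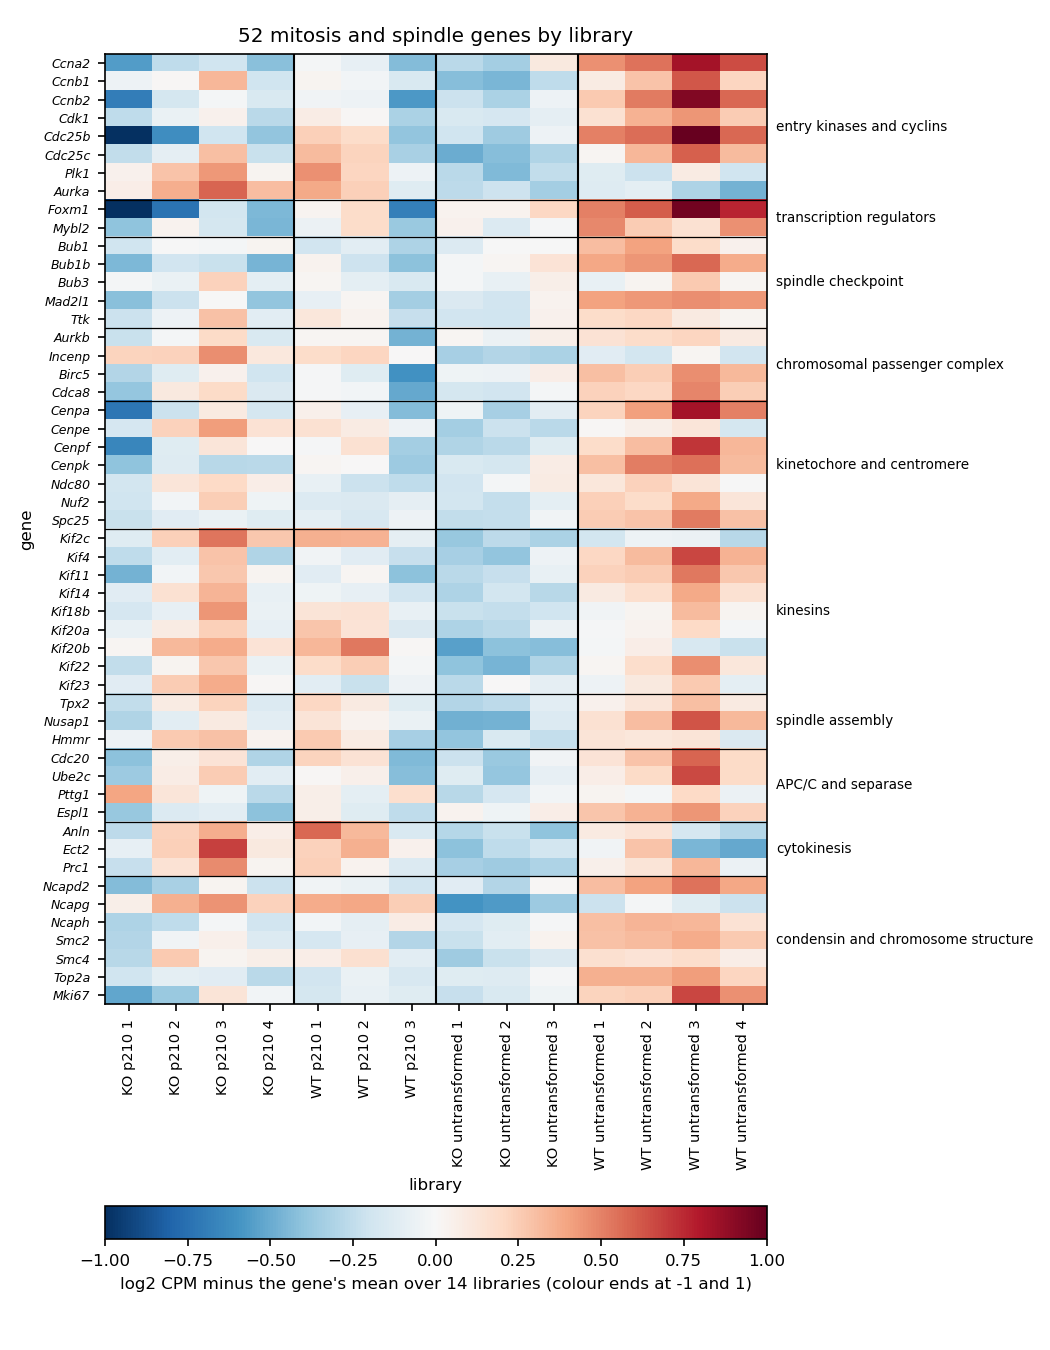
Expression of the 52 genes (rows, by role) in the 14 libraries (columns, by group), as log2 CPM minus the gene's mean over the libraries, with the colour scale ending at -1 and 1. WT untransformed libraries are above the mean for 37 to 46 genes each and KO untransformed libraries for 3 to 13, while p210 libraries range from 6 to 38 in KO and from 6 to 32 in WT.

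In untransformed cells the levels of mitosis genes were below WT in KO libraries, most evenly among condensin genes and most strongly among cyclins and Cdc25 phosphatases. Of 52 genes, 26 were lower and 0 higher in KO than in WT untransformed libraries by edgeR's quasi-likelihood test (adjusted p under 0.05 over all 14512 genes), where 6.5% of all genes were called lower and 8.73% higher. All 52 log2 fold changes were below 0, whereas 48.3% of all genes were above 0, and 41 had an unadjusted p under 0.05. Their median was -0.40, against -0.016 over all genes. In 43 genes every KO library was below every WT library, which was so for 18.9% of all genes. The smallest adjusted p belonged to Spc25, Top2a and Nusap1. Single libraries moved the count, to 2 when KO untransformed replicate 2 was left out and to 8 when replicate 1 was. It was 22 with the library labelled KO p210 replicate 2 removed, while removing WT untransformed replicate 3 gave 18. Within the first code of the sample descriptions (2 libraries against 2) 11 were called with a median of -0.43, and within the second (1 against 2) 0 were called, with 10 at an unadjusted p under 0.05, a median of -0.37 and 50 of 52 below 0.

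Between transformed lines no difference by genotype was detected. Of the 52 genes 0 were called in KO against WT p210 libraries, where 4.44% of all genes were called, 3.56% lower and 0.882% higher. The smallest adjusted p was 0.184, and 3 genes had an unadjusted p under 0.05. DESeq2 and limma-voom also called 0. Fold changes split into 23 above and 29 below 0 with a median of -0.023, and in 0 genes were the groups apart, against 7.7% of all genes apart downward and 5.65% upward. Without the library labelled KO p210 replicate 2 the count stayed at 0 and the median was -0.036. The median differed between codes: it was -0.20 in the first code, where 2 genes were called lower, and 0.25 in the second, where 0 were called and 3 had an unadjusted p under 0.05.

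**Figure D2:**
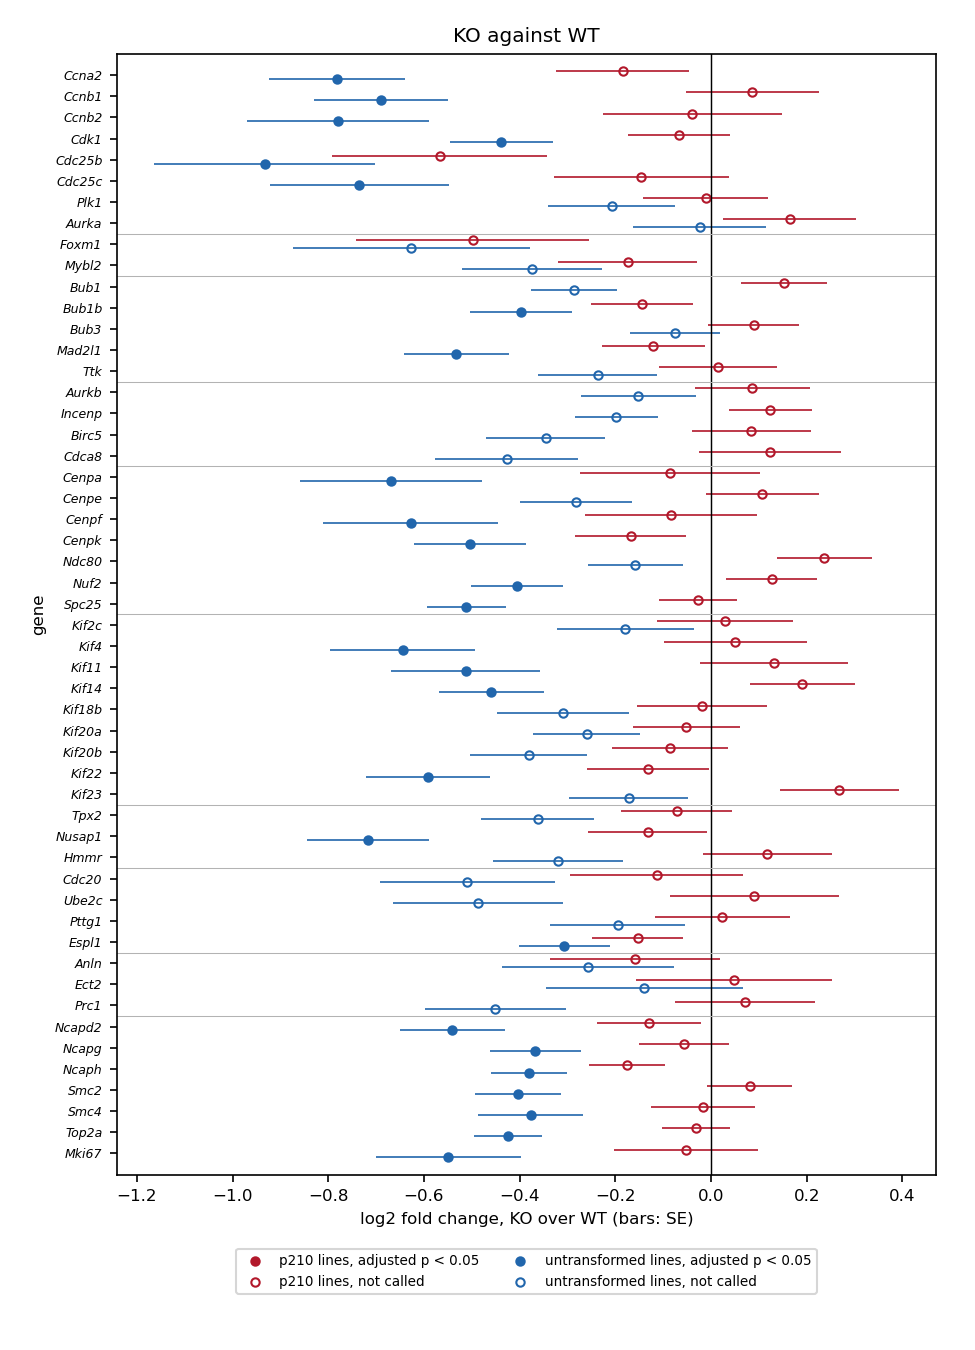
Log2 fold change of KO over WT for each of the 52 genes (vertical axis, by role), in p210 lines (red) and untransformed lines (blue), with bars of 1 SE. Filled points passed an adjusted p of 0.05. All 52 blue points are left of 0, 26 of them filled, while the red points lie on both sides of 0 and 0 are filled.

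With p210 most calls were falls in WT lines and rises in KO lines. In KO lines 3 genes were lower and 12 higher in p210 than in untransformed libraries, where 18% of all genes were lower and 19.2% higher, and the median log2 fold change was 0.13 (all genes -0.0072). In KO lines 35 of 52 log2 fold changes were above 0 (all genes 49.4%), and in WT lines 11 of 52 (all genes 51.4%). In WT lines 25 were lower and 4 higher, where 17.6% of all genes were lower and 21.9% higher, and the median was -0.32 (all genes 0.019). The KO count of higher genes was near its background share, whereas the WT count of lower genes stood above its own. The KO sign count and median depended on the setting, at 26 of 52 and 0.023 with scaling to total counts alone, 29 of 52 and 0.040 without KO p210 replicate 3, and 28 of 52 and 0.035 with the line as a replicate block. Scaling to total counts alone gave 3 lower and 6 higher in KO and 30 lower and 1 higher in WT, with the median of all genes then at -0.12 in KO and -0.097 in WT. Upper quartile scaling gave 3 and 7 in KO and 30 and 1 in WT. With the line as a replicate block the counts were 0 lower and 6 higher in KO, and 15 lower and 3 higher in WT. Of the 15 KO calls, the block kept 5 (Aurka, Incenp, Cenpe, Kif20b and Ncapg). Leaving out the library labelled KO p210 replicate 2 gave 2 lower and 7 higher in KO lines, with 34 of 52 above 0, and kept 9 of the 15, losing Ccnb1, Foxm1, Kif14, Kif22, Hmmr and Prc1. Without KO p210 replicate 3 the count was 3 lower and 7 higher, and without any 1 of the KO untransformed libraries 7 or 8 genes were called. Without WT p210 replicate 3, WT lines had 15 lower and 7 higher.

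**Figure D3:**
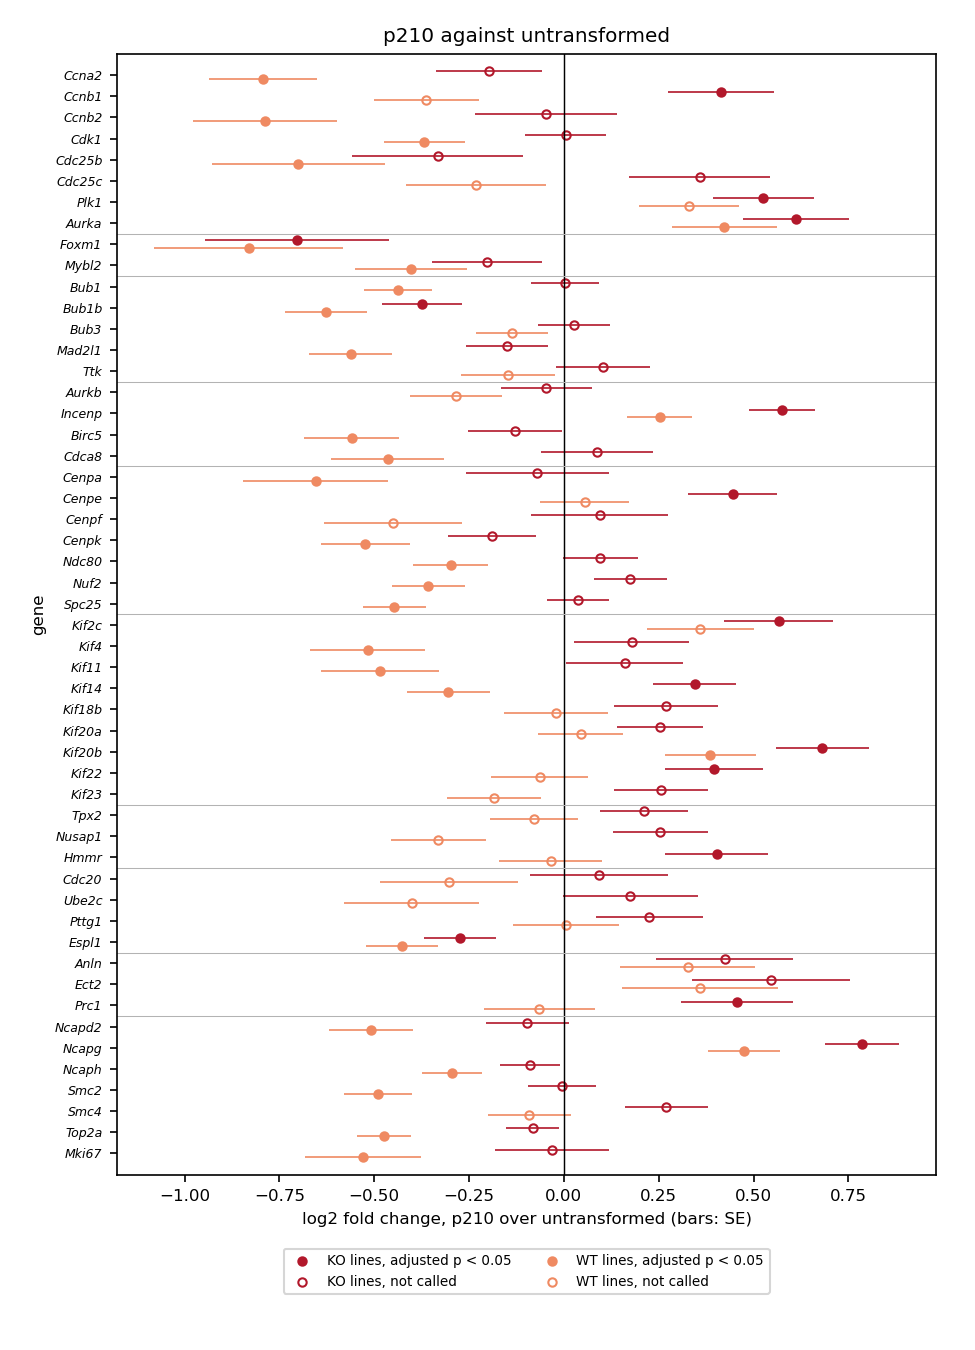
Log2 fold change of p210 over untransformed for each of the 52 genes (vertical axis, by role), in KO lines (red) and WT lines (orange), with bars of 1 SE. Filled points passed an adjusted p of 0.05. In every gene the KO point is to the right of the WT point, and 12 KO points and 4 WT points are filled to the right of 0.

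The kinases and cyclins of mitotic entry gave the largest differences in untransformed cells, where 6 of 8 fell in KO. Of all genes, 6.5% were lower there. Ccnb1 (cyclin B1, ENSMUSG00000041431.16, chromosome 13, 100778650 to 100786570, GRCm38), which activates Cdk1, had 43.4, 45.4, 56.5 and 39.2 CPM in KO p210, 45.7, 44.1 and 40.5 CPM in WT p210, 33.4, 32.8 and 37.7 CPM in KO untransformed and 47.5, 54.7, 69.0 and 52.3 CPM in WT untransformed libraries. The 3 KO untransformed libraries were below the other 11, and both p210 groups lay between the untransformed groups with some overlap. In untransformed cells Ccnb1 was lower in KO than in WT with a log2 fold change of -0.69 ± 0.14 (SE, adjusted p = 0.0112). With p210 it rose in KO lines (0.41 ± 0.14, adjusted p = 0.0352), while in WT lines the change was -0.36 ± 0.14 and did not pass (adjusted p = 0.0556), although every WT p210 library was below every WT untransformed one.

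Cdk1 (ENSMUSG00000019942.13, chromosome 10, 69335146 to 69352938), the catalytic partner, had 151, 171, 185 and 149 CPM in KO p210, 189, 181 and 144 CPM in WT p210, 161, 159.6 and 169 CPM in KO untransformed and 199, 229, 243 and 215 CPM in WT untransformed libraries. Only the WT untransformed libraries stood apart, above all others. Cdk1 fell in untransformed KO (-0.44 ± 0.11, adjusted p = 0.0215). With p210 the change was 0.0043 ± 0.11 in KO (adjusted p = 0.979), and Cdk1 fell in WT (-0.37 ± 0.11, adjusted p = 0.0173). Ccna2 (cyclin A2), which acts in S phase and at mitotic entry, had 141, 174, 181 and 155 CPM in KO p210, 205, 196 and 153 CPM in WT p210, 172, 164 and 222 CPM in KO untransformed and 285, 302, 368 and 326 CPM in WT untransformed libraries. It showed the same order, with the 4 WT untransformed libraries above the rest, and log2 fold changes of -0.78 ± 0.14 in untransformed KO (adjusted p = 0.00773) and -0.79 ± 0.14 with p210 in WT (adjusted p = 0.00112). The second B-type cyclin, Ccnb2, averaged 100.4 ± 18.7 CPM in KO p210, 103 ± 20.4 CPM in WT p210, 104 ± 9.89 CPM in KO untransformed and 178 ± 34.5 CPM in WT untransformed libraries (SD).

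Cdc25b and Cdc25c, phosphatases that activate cyclin-Cdk complexes, fell in untransformed KO, with log2 fold changes of -0.93 and -0.74 (adjusted p = 0.0224 and 0.0244). Cdc25b gave the largest fold change of the set in untransformed KO and also the largest between p210 genotypes, -0.57 ± 0.22 (adjusted p = 0.184), which did not pass and was -1.03 in the first code (adjusted p = 0.0229) and 0.097 in the second. The kinases Plk1 and Aurka, which promote entry and spindle assembly, did not follow the cyclins. Plk1 had 68.8, 81.4, 90.1 and 68.1 CPM in KO p210, 91.4, 77.4 and 64.3 CPM in WT p210, 55.3, 49.1 and 56.3 CPM in KO untransformed and 61.3, 57.6, 70.5 and 58.0 CPM in WT untransformed libraries. The KO untransformed libraries were lowest, yet the difference from WT did not pass (-0.21 ± 0.13, adjusted p = 0.298), and Plk1 rose with p210 in KO (0.53 ± 0.13, adjusted p = 0.009). Aurka (Aurora A, ENSMUSG00000027496.15, chromosome 2, 172356190 to 172370535) had 58.2, 71.3, 83.3 and 68.8 CPM in KO p210, 72.2, 65.4 and 50.9 CPM in WT p210, 46.4, 48.0 and 43.9 CPM in KO untransformed and 50.8, 51.8, 44.8 and 40.1 CPM in WT untransformed libraries. Untransformed groups overlapped (-0.024 ± 0.14, adjusted p = 0.925), and Aurka was higher with p210 in both KO (0.61 ± 0.14, adjusted p = 0.00543) and WT lines (0.42 ± 0.14, adjusted p = 0.0287).

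**Figure D4:**
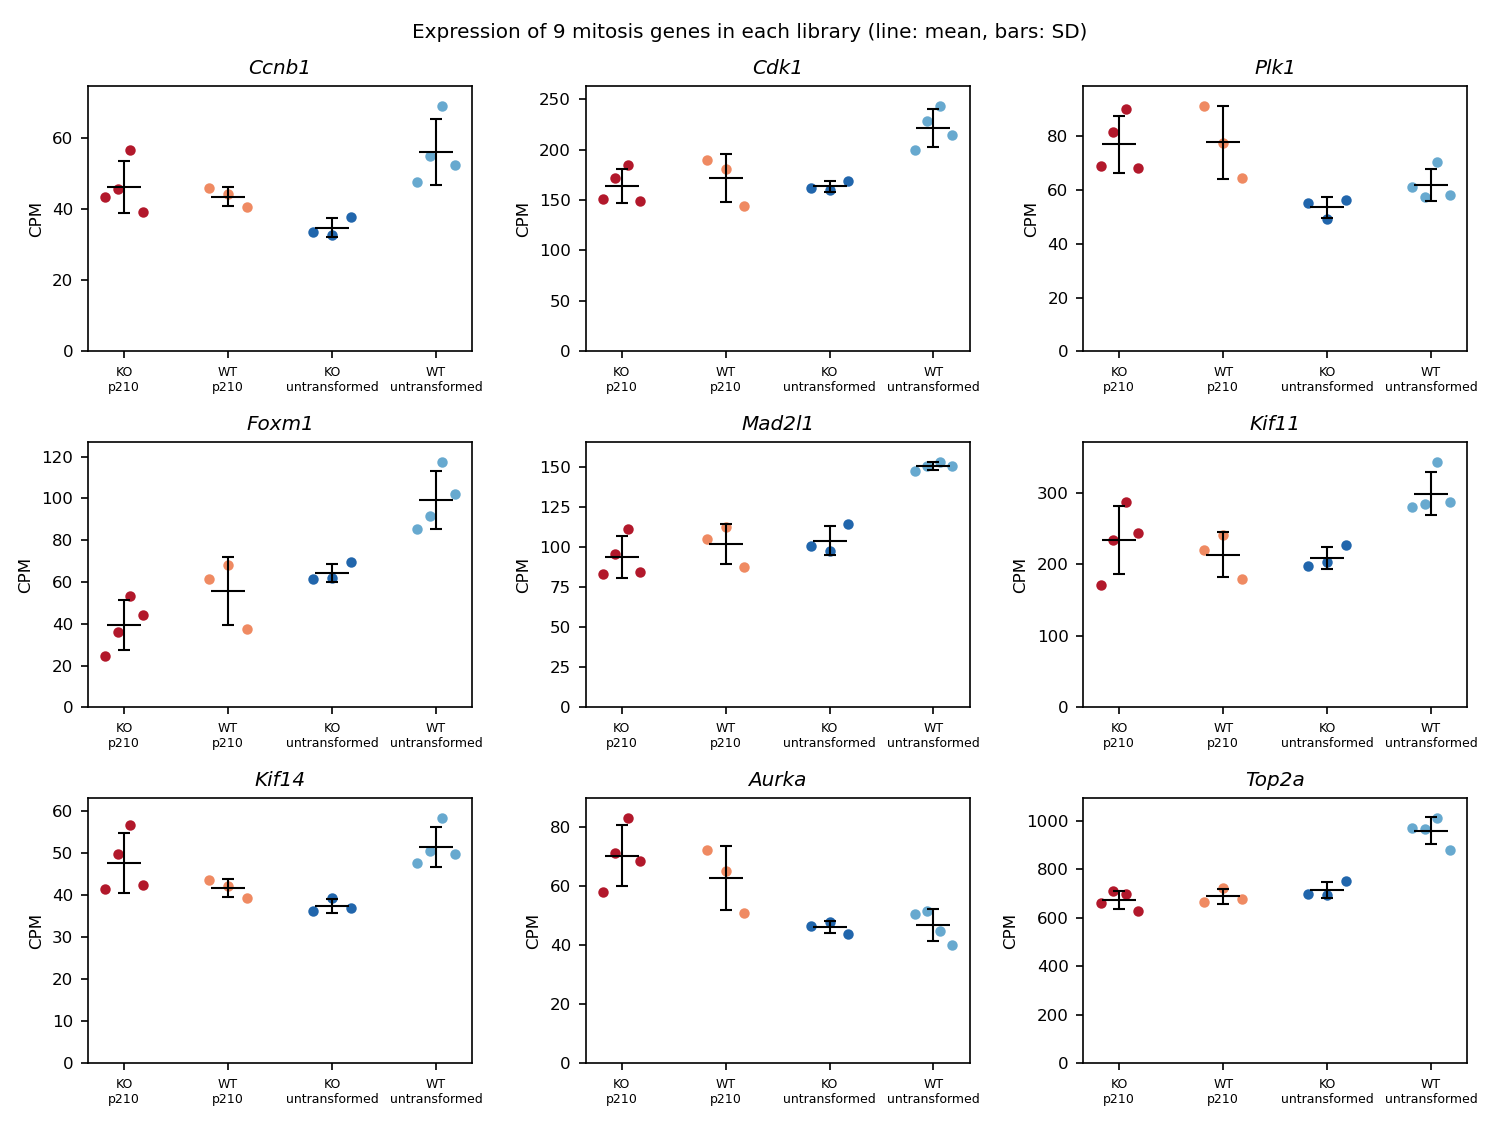
CPM of 9 genes in each library (points), with the group mean (line) and SD (bars), for KO p210 (n = 4), WT p210 (n = 3), KO untransformed (n = 3) and WT untransformed cells (n = 4). WT untransformed libraries stand above all others for Cdk1, Foxm1, Mad2l1 and Top2a, while the p210 group means of Aurka and Plk1 are above the untransformed ones.

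The transcription regulators Foxm1 and Mybl2, which drive late cell cycle genes, both fell with p210 in WT lines, where 17.6% of all genes were lower. Foxm1 had 24.6, 36.0, 53.1 and 44.1 CPM in KO p210, 61.5, 68.3 and 37.4 CPM in WT p210, 61.6, 61.8 and 69.5 CPM in KO untransformed and 85.4, 91.7, 118 and 102 CPM in WT untransformed libraries. WT untransformed libraries were above all others, and every KO p210 library was below every KO untransformed one. Foxm1 fell with p210 in KO (-0.70 ± 0.24, adjusted p = 0.0395) and in WT (-0.83 ± 0.25, adjusted p = 0.0199), while the difference between untransformed genotypes, -0.63 ± 0.25, did not pass (adjusted p = 0.103). Mybl2 (B-Myb) averaged 47.5 ± 7.64 CPM in KO p210, 53.5 ± 10.2 CPM in WT p210, 54.6 ± 3.54 CPM in KO untransformed and 70.8 ± 7.69 CPM in WT untransformed libraries (SD). It passed the test only for the fall with p210 in WT (-0.40 ± 0.15, adjusted p = 0.0455).

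Of 5 spindle checkpoint genes, 2 fell in untransformed KO, 1 fell with p210 in KO and 3 fell with p210 in WT. The shares of all genes that were lower in these comparisons were 6.5%, 18% and 17.6%, so the KO count with p210 was near its background share. Mad2l1 (Mad2), which inhibits Cdc20 at unattached kinetochores, had 83.3, 95.8, 111 and 84.5 CPM in KO p210, 105, 113 and 87.7 CPM in WT p210, 101, 97.1 and 114 CPM in KO untransformed and 147, 150.2, 153 and 151 CPM in WT untransformed libraries. The WT untransformed libraries, at 147 to 153 CPM, were above all others. The log2 fold changes were -0.53 ± 0.11 in untransformed KO (adjusted p = 0.0117), -0.15 ± 0.11 with p210 in KO (adjusted p = 0.302) and -0.56 ± 0.11 with p210 in WT (adjusted p = 0.0019).

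Bub1b (BubR1), the checkpoint partner of Mad2, had 106, 127, 124 and 105 CPM in KO p210, 149, 126 and 109 CPM in WT p210, 143, 147 and 159.6 CPM in KO untransformed and 189.9, 197, 215 and 188 CPM in WT untransformed libraries. It was 1 of 3 genes of the set that fell with p210 in both genotypes, with log2 fold changes of -0.37 in KO (adjusted p = 0.0158) and -0.63 in WT (adjusted p = 0.00085), the others being Foxm1 and Espl1. The kinase Bub1 passed only with p210 in WT (-0.44 ± 0.090, adjusted p = 0.00269) and was at adjusted p = 0.0506 in untransformed KO. Bub3, which anchors both Bub proteins, had 174, 168, 207 and 165 CPM in KO p210, 179, 165 and 159 CPM in WT p210, 174, 168 and 184 CPM in KO untransformed and 167, 179.6, 212 and 179 CPM in WT untransformed libraries. Its groups overlapped in every comparison, and 0 of the comparisons passed. Ttk (Mps1), the kinase that starts checkpoint signalling, ranged 29.8 to 42.4 CPM in KO p210, 29.5 to 37.4 CPM in WT p210, 30.2 to 35.6 CPM in KO untransformed and 35.2 to 39.8 CPM in WT untransformed libraries, and 0 of its comparisons passed.

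The chromosomal passenger complex, Aurora B with Incenp, survivin (Birc5) and borealin (Cdca8), corrects faulty attachments. None of its 4 genes passed in untransformed KO, where edgeR gave 3 an unadjusted p under 0.05. In all 4 every KO library was below every WT library, which was so for 18.9% of all genes. For Aurkb the gap was narrow, with KO at most 106.8 CPM and WT at least 108.9 CPM. Birc5 had 77.5, 87.6, 97.9 and 82.7 CPM in KO p210, 94.5, 87.4 and 62.6 CPM in WT p210, 92.3, 91.7 and 99.6 CPM in KO untransformed and 117, 113, 131 and 119 CPM in WT untransformed libraries. WT untransformed libraries were highest, and Birc5 fell with p210 in WT (-0.56 ± 0.13, adjusted p = 0.00434). The kinase itself, Aurkb, averaged 99.7 ± 12.9 CPM in KO p210, 93.8 ± 17.2 CPM in WT p210, 103 ± 4.35 CPM in KO untransformed and 114 ± 4.31 CPM in WT untransformed libraries (SD), with 0 comparisons passed. Incenp, the scaffold, moved otherwise and was higher with p210 in both KO (0.57 ± 0.087, adjusted p = 0.000493) and WT (0.25 ± 0.086, adjusted p = 0.0351).

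Among 7 kinetochore and centromere genes, 5 fell in untransformed KO, 1 rose with p210 in KO and 5 fell with p210 in WT. Of all genes, 6.5% fell in the first, 19.2% rose in the second and 17.6% fell in the third comparison. The KO count with p210 was thus not above its background share. Spc25, a subunit of the Ndc80 complex that grips microtubules, had 32.3, 34.9, 36.2 and 34.7 CPM in KO p210, 35.3, 33.8 and 36.4 CPM in WT p210, 31.9, 32.0 and 36.9 CPM in KO untransformed and 45.1, 46.1, 54.2 and 46.2 CPM in WT untransformed libraries. WT untransformed libraries were above the other 10, which lay between 31.9 and 36.9 CPM. Spc25 had the smallest adjusted p of the set in untransformed KO (-0.51 ± 0.083, adjusted p = 0.00583). With p210 it was 0.038 ± 0.082 in KO (adjusted p = 0.749) and fell in WT (-0.45 ± 0.083, adjusted p = 0.00135). Its partner Nuf2 likewise fell in untransformed KO (-0.41 ± 0.096, adjusted p = 0.0188) and with p210 in WT (-0.36 ± 0.096, adjusted p = 0.0115). Ndc80, the third partner, had 39.6, 49.0, 51.6 and 47.0 CPM in KO p210, 42.6, 38.8 and 37.8 CPM in WT p210, 39.4, 44.4 and 47.6 CPM in KO untransformed and 48.6, 52.8, 49.3 and 44.8 CPM in WT untransformed libraries. It passed only with p210 in WT (-0.30 ± 0.099, adjusted p = 0.0314), and the untransformed genotypes overlapped (-0.16 ± 0.099, adjusted p = 0.291).

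Cenpa, the histone H3 variant that marks centromeres, had 72.5, 103, 127 and 106 CPM in KO p210, 124, 113 and 88.5 CPM in WT p210, 116, 95.1 and 111 CPM in KO untransformed and 140.1, 159, 213 and 170.1 CPM in WT untransformed libraries. WT untransformed libraries were above all others, with log2 fold changes of -0.67 in untransformed KO (adjusted p = 0.0378) and -0.65 with p210 in WT (adjusted p = 0.0178). Cenpf, a large kinetochore protein, averaged 80.7 ± 17.3 CPM in KO p210, 85.5 ± 14.4 CPM in WT p210, 75.6 ± 5.10 CPM in KO untransformed and 117 ± 19.8 CPM in WT untransformed libraries (SD), and passed in untransformed KO alone (-0.63 ± 0.18, adjusted p = 0.0395). Cenpe, a kinesin at the kinetochore, had 92.3, 122, 138 and 115 CPM in KO p210, 115, 110.0 and 99.9 CPM in WT p210, 81.9, 89.5 and 86.1 CPM in KO untransformed and 105, 108, 113 and 91.8 CPM in WT untransformed libraries. Here the KO untransformed libraries were below all others, and Cenpe rose with p210 in KO (0.44 ± 0.12, adjusted p = 0.0117) with 0.055 ± 0.12 in WT (adjusted p = 0.737).

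In the main fit the 9 kinesins, motors that slide or depolymerise microtubules, gave the largest share of genes that rose with p210 in KO. These were 4 of 9, where 19.2% of all genes rose. All 9 log2 fold changes there were above 0, against 49.4% of all genes. With the library labelled KO p210 replicate 2 left out 2 of 9 rose, and with the line block 1 of 9. In neither setting was the share of the kinesins the largest. In untransformed KO 4 fell (Kif4, Kif11, Kif14 and Kif22), and with p210 in WT 3 fell (Kif4, Kif11 and Kif14) and 1 rose (Kif20b). Of all genes, 6.5% were lower in untransformed KO, and 17.6% were lower and 21.9% higher with p210 in WT. Kif14, a motor of the midbody that acts in cytokinesis, had 41.4, 49.8, 56.5 and 42.4 CPM in KO p210, 43.4, 42.2 and 39.3 CPM in WT p210, 36.1, 39.3 and 36.9 CPM in KO untransformed and 47.5, 50.4, 58.3 and 49.6 CPM in WT untransformed libraries. Every WT p210 library was below every WT untransformed one, and every KO p210 library above every KO untransformed one. Kif14 was the single gene of the set called in opposite directions with p210, higher in KO (0.34 ± 0.11, adjusted p = 0.0272) and lower in WT (-0.31 ± 0.11, adjusted p = 0.043). In untransformed cells it fell in KO (-0.46 ± 0.11, adjusted p = 0.0195). The KO call was lost in 12 of 28 alternative settings and the WT call in 14 of 28.

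Kif11 (Eg5), which pushes the spindle poles apart, had 171, 233, 287 and 243 CPM in KO p210, 220.1, 241 and 179 CPM in WT p210, 198, 203 and 227 CPM in KO untransformed and 280.0, 284, 343 and 287 CPM in WT untransformed libraries. It fell in untransformed KO (-0.51 ± 0.16, adjusted p = 0.0456) and with p210 in WT (-0.48 ± 0.16, adjusted p = 0.0273), while KO p210 libraries spread across the levels of both untransformed groups. Kif2c (MCAK), a microtubule depolymerase, had 47.6, 61.2, 75.3 and 62.6 CPM in KO p210, 66.5, 65.9 and 48.9 CPM in WT p210, 39.9, 43.3 and 41.8 CPM in KO untransformed and 45.8, 50.2, 49.7 and 42.8 CPM in WT untransformed libraries. KO p210 libraries were all above KO untransformed ones, and Kif2c rose there (0.57 ± 0.14, adjusted p = 0.00927), while the WT change of 0.36 ± 0.14 did not pass (adjusted p = 0.0614). Kif20b, a motor of late mitosis, rose with p210 in KO (0.68 ± 0.12, adjusted p = 0.0014) and in WT (0.39 ± 0.12, adjusted p = 0.0243), and Kif22, a motor on chromosome arms, rose in KO (0.40 ± 0.13, adjusted p = 0.0303). Kif20a and Kif23, which work in cytokinesis, passed in 0 comparisons, and Kif20a averaged 127 ± 13.5 CPM in KO p210, 132 ± 19.3 CPM in WT p210, 107 ± 10.3 CPM in KO untransformed and 128 ± 9.24 CPM in WT untransformed cells (SD). Kif23 was at 74.0 to 104 CPM in KO p210, 68.6 to 77.5 CPM in WT p210, 66.4 to 80.5 CPM in KO untransformed and 74.7 to 96.1 CPM in WT untransformed cells, all overlapping.

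Of the 3 spindle assembly genes, Nusap1, which bundles microtubules, fell in untransformed KO, where 6.5% of all genes were lower. Nusap1 had 128, 146, 167 and 146 CPM in KO p210, 172, 161 and 149.8 CPM in WT p210, 113, 113 and 143 CPM in KO untransformed and 175, 194, 243 and 196 CPM in WT untransformed libraries. WT untransformed libraries were above all others, with a log2 fold change of -0.72 ± 0.13 (adjusted p = 0.00756) for KO, and neither p210 comparison passed (0.25 in KO and -0.33 in WT). Tpx2, which activates Aurora A on the spindle, averaged 197 ± 28.9 CPM in KO p210, 207 ± 23.6 CPM in WT p210, 169.9 ± 11.8 CPM in KO untransformed and 218 ± 17.6 CPM in WT untransformed libraries (SD), with adjusted p = 0.0561 in untransformed KO. Hmmr, a hyaluronan receptor that also binds spindle microtubules, had 73.3, 91.0, 92.9 and 77.8 CPM in KO p210, 91.0, 80.2 and 60.4 CPM in WT p210, 57.5, 68.2 and 64.3 CPM in KO untransformed and 82.9, 82.2, 82.8 and 68.5 CPM in WT untransformed libraries. It rose with p210 in KO (0.40 ± 0.14, adjusted p = 0.0357), where the groups did not overlap.

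Of 4 genes of the APC/C step, Espl1 (separase), which cleaves cohesin at anaphase, was the only one called. It fell in untransformed KO (-0.31 ± 0.096, adjusted p = 0.0494), with p210 in KO (-0.27 ± 0.095, adjusted p = 0.0395) and with p210 in WT (-0.43 ± 0.096, adjusted p = 0.0044). The shares of all genes that were lower there were 6.5%, 18% and 17.6%. Cdc20, the APC/C activator held by the checkpoint, had 80.9, 112, 118 and 87.2 CPM in KO p210, 125, 118 and 79.2 CPM in WT p210, 92.7, 82.8 and 105 CPM in KO untransformed and 118, 131, 161 and 123 CPM in WT untransformed libraries. KO untransformed libraries were below WT ones, but the difference did not pass (-0.51 ± 0.18, adjusted p = 0.0776). Ube2c, the ubiquitin-conjugating enzyme of the APC/C, gave -0.49 ± 0.18 in untransformed KO (adjusted p = 0.0825). Pttg1 (securin), the inhibitor of separase, ranged 15.0 to 23.7 CPM in KO p210, 16.9 to 20.2 CPM in WT p210, 14.9 to 17.7 CPM in KO untransformed and 17.4 to 20.7 CPM in WT untransformed cells, overlapping throughout.

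The 3 cytokinesis genes were the only role with a positive median with p210 in both genotypes, 0.46 in KO and 0.33 in WT. Prc1, which bundles the central spindle, had 105, 137, 172 and 127 CPM in KO p210, 146, 127 and 113 CPM in WT p210, 98.5, 97.0 and 100.2 CPM in KO untransformed and 129, 135, 156 and 119 CPM in WT untransformed libraries. The KO untransformed libraries, at 97.0 to 100.2 CPM, were below all others, and Prc1 rose with p210 in KO (0.46 ± 0.15, adjusted p = 0.0294). Ect2, which activates RhoA at the cleavage furrow, had 83.0, 104, 141 and 94.0 CPM in KO p210, 103, 112 and 90.5 CPM in WT p210, 65.9, 73.5 and 77.2 CPM in KO untransformed and 85.6, 107, 64.0 and 61.6 CPM in WT untransformed libraries. KO p210 libraries were above KO untransformed ones, although the change of 0.55 ± 0.21 did not pass (adjusted p = 0.0573), and WT untransformed libraries spread from the lowest levels to those of p210 cells. Anln (anillin), a furrow scaffold, passed in 0 comparisons (0.42 ± 0.18 with p210 in KO, adjusted p = 0.0833).

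Condensin and chromosome structure was the one role in which all genes, 7 of 7, fell in untransformed KO, and 5 fell and 1 rose with p210 in WT. Of all genes, 6.5% were lower in untransformed KO, and 17.6% were lower and 21.9% higher with p210 in WT. Top2a (DNA topoisomerase II alpha, ENSMUSG00000020914.17, chromosome 11, 98992943 to 99024189) had 659, 708, 698 and 629 CPM in KO p210, 664, 723 and 678 CPM in WT p210, 695, 693 and 752 CPM in KO untransformed and 970.5, 967, 1012 and 879 CPM in WT untransformed libraries. WT untransformed libraries were above the other 10, which lay between 629 and 752 CPM. Top2a fell in untransformed KO (-0.42 ± 0.071, adjusted p = 0.00656). With p210 it was -0.083 ± 0.071 in KO (adjusted p = 0.387) and fell in WT (-0.48 ± 0.071, adjusted p = 0.000372). The calls of Top2a and Spc25 in untransformed KO were lost in 1 of 27 alternative settings each, the fewest of the 26.

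Mki67 (Ki-67), which coats mitotic chromosomes and marks cycling cells, had 359, 398, 563 and 503 CPM in KO p210, 455, 488 and 473 CPM in WT p210, 437, 463 and 497 CPM in KO untransformed and 598, 606, 817 and 704 CPM in WT untransformed libraries. It fell in untransformed KO (-0.55 ± 0.15, adjusted p = 0.0334) and with p210 in WT (-0.53 ± 0.15, adjusted p = 0.0164), again with WT untransformed libraries above all others. Smc2, the ATPase core of condensin, averaged 203 ± 20.8 CPM in KO p210, 192 ± 14.3 CPM in WT p210, 204 ± 18.6 CPM in KO untransformed and 269.6 ± 8.69 CPM in WT untransformed libraries (SD), with log2 fold changes of -0.40 in untransformed KO (adjusted p = 0.0148) and -0.49 with p210 in WT (adjusted p = 0.0013). Ncapd2, a regulatory subunit of condensin I, gave -0.54 ± 0.11 and -0.51 ± 0.11 in the same comparisons. Ncapg, another subunit of the same complex, had 66.2, 81.1, 86.6 and 74.8 CPM in KO p210, 82.4, 83.0 and 75.3 CPM in WT p210, 42.0, 42.9 and 49.3 CPM in KO untransformed and 54.8, 62.8, 58.5 and 54.8 CPM in WT untransformed libraries. Every p210 library was above every untransformed library, so Ncapg rose with p210 in KO (0.79 ± 0.097, adjusted p = 0.000135) and in WT (0.48 ± 0.094, adjusted p = 0.0021), although it fell in untransformed KO like its partners (-0.37 ± 0.096, adjusted p = 0.0265).

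Side by side, the p210 changes in KO and WT lines, which share no library, gave these patterns. In 21 genes the fall in WT passed and the KO change did not, among them Ccna2, Cdk1, Mad2l1, Spc25, Top2a and Mki67. In 7 the rise in KO passed and the WT change did not, namely Ccnb1, Cenpe, Hmmr, Kif22, Kif2c, Plk1 and Prc1. A further 4 rose in both (Aurka, Incenp, Kif20b and Ncapg), 3 fell in both, Kif14 was opposite, and 16 passed in neither. By sign alone, 24 genes (46.2%) were above 0 in KO and below 0 in WT, against 9.68% of all genes tested. Another 17 were below 0 in both, 11 were above 0 in both and 0 were below 0 in KO and above 0 in WT. Of all these patterns, only the first by sign was counted over all genes, so the other counts have no share to be set against. Taken singly, 39.5% of all genes were called with p210 in WT and 37.2% in KO. The patterns changed with the fit. With the library labelled KO p210 replicate 2 left out, 22 fell in WT alone, 3 rose in KO alone (Plk1, Cenpe and Kif2c), 4 rose in both, 2 fell in both, 0 were opposite and 21 passed in neither, with 23 above 0 in KO and below 0 in WT. With the line as a replicate block, 15 fell in WT alone, 3 rose in KO alone (Incenp, Cenpe and Ect2), 3 rose in both (Aurka, Kif20b and Ncapg), 0 fell in both, 0 were opposite and 31 passed in neither, with 19 above 0 in KO and below 0 in WT. Passing in one genotype and not in the other does not show that the shifts differ, which the interaction of genotype and p210 tests directly.

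In that test all 52 log2 differences of shifts, KO minus WT, were above 0, against 46.9% of all genes, with a median of 0.39 (all genes -0.026). Nevertheless 0 of 52 passed by edgeR, where 0.0345% of all genes were called lower and 0% higher, and limma-voom called 0. DESeq2 called 7 of 52, all higher, with 3.07% of its tested genes called in either direction (273 lower and 136 higher). An unadjusted p under 0.05 was reached by 29 genes, by 21 without the library labelled KO p210 replicate 2, by 19 without KO p210 replicate 3, by 15 with the line as a replicate block and by 10 with sequencing runs as a term. The smallest adjusted p was 0.155, for Kif14 (0.65 ± 0.15) and Spc25 (0.48 ± 0.12), followed by Ccnb1 (0.78 ± 0.20), Nuf2 (0.53 ± 0.14) and Top2a (0.39 ± 0.10) at 0.171. For the first 4 of these genes DESeq2 gave an adjusted p of 0.00904, 0.0104, 0.0172 and 0.0162. The median was 0.37 when the library labelled KO p210 replicate 2 was dropped, within the first code 0.24 and within the second 0.59. The interaction uses the same 14 libraries as the other comparisons and is not a separate measurement.

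Within lines the shift was uneven. Code and letter of the sample descriptions were read as naming a line, and 6 lines were present in both states. The median of p210 minus untransformed log2 CPM over the 52 genes was -0.0054 (26 higher, 26 lower), 0.20 (43 higher, 9 lower) and -0.022 (24 higher, 28 lower) in the 3 KO lines, and -0.11 (19 higher, 33 lower), -0.24 (13 higher, 39 lower) and -0.57 (5 higher, 47 lower) in the 3 WT lines. All 3 WT medians were thus below the 3 KO medians. The KO line at 0.20 is the one whose p210 library is labelled KO p210 replicate 2, and the WT line at -0.57 pairs WT p210 replicate 3 with WT untransformed replicate 3, the library with the lowest myeloid marker level. In the same lines the median over 34 replication and G1/S genes was -0.47, -0.29 and -0.61 in KO and -0.53, -0.56 and -0.70 in WT.

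**Figure D5:**
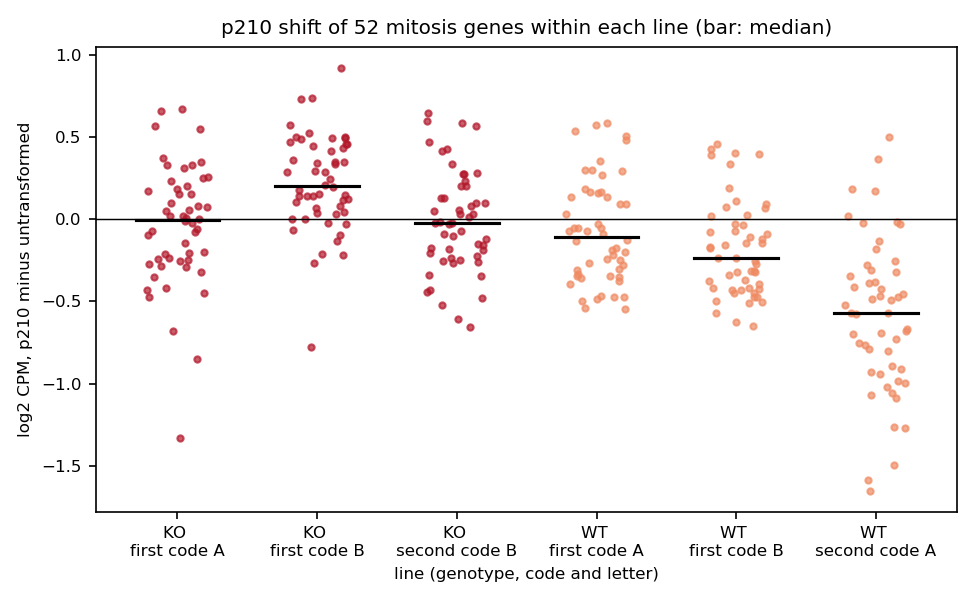
Shift of each of the 52 genes (points) between the p210 and the untransformed library of a line, as a difference of log2 CPM, in 3 KO lines and 3 WT lines, with the median as a bar. The KO medians lie between -0.022 and 0.20 and the WT medians between -0.57 and -0.11.

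Other genes of mitosis were compared from a list of 96 that excluded the 52. In untransformed KO 31 were lower and 1 higher, where 6.5% and 8.73% of all genes were, with a median log2 fold change of -0.30. The count of lower genes was 21 with the library labelled KO p210 replicate 2 left out. The smallest adjusted p belonged to the condensin II subunit Ncaph2 (-0.29 ± 0.053, adjusted p = 0.008), the kinesin Kif2a (-0.51 ± 0.097, adjusted p = 0.00911) and Esco2, a cohesin acetyltransferase (-0.35 ± 0.071, adjusted p = 0.0114). Between p210 genotypes 1 was lower, Wee1, the kinase that restrains Cdk1, at 34.1 ± 1.76 CPM in KO p210 and 46.6 ± 8.85 CPM in WT p210 libraries (SD, -0.45 ± 0.11, adjusted p = 0.0398). With the library labelled KO p210 replicate 2 left out 0 were called by edgeR there, and 7 had an unadjusted p under 0.05. With p210, 15 were lower and 23 higher in KO lines, near the shares of all genes (18% lower and 19.2% higher). These counts were 14 and 18 with that library left out, and 9 and 11 with the line block. In WT lines 42 were lower and 7 higher, against 17.6% and 21.9% of all genes. The smallest adjusted p among those higher in KO belonged to the centromere protein gene Cenpc1 (0.74 ± 0.092, adjusted p = 0.00015), the APC/C subunit gene Anapc4 (0.45 ± 0.061, adjusted p = 0.000267) and Ccnf, encoding cyclin F (0.60 ± 0.090, adjusted p = 0.000445). The interaction called 0 of the 96, with 31 at an unadjusted p under 0.05, 85 above 0 and a median of 0.29.

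Genes of DNA replication and the G1/S step had falls in all 4 comparisons. Of 34, 22 fell in untransformed KO, 10 fell in KO against WT p210, 26 fell with p210 in KO and 28 fell with p210 in WT, and 0 rose. The share of all genes that were lower was 6.5%, 3.56%, 18% and 17.6% in these comparisons. With the library labelled KO p210 replicate 2 left out, the counts of falls were 22, 4, 27 and 28. Lig1, which joins replicated strands, averaged 74.2 ± 4.58 CPM in KO p210, 118 ± 14.7 CPM in WT p210, 145 ± 14.1 CPM in KO untransformed and 246 ± 15.0 CPM in WT untransformed libraries (SD), and was lower in KO in both states (-0.67 ± 0.093 with p210, adjusted p = 0.00323). Pola1, a DNA polymerase alpha subunit, was likewise lower in KO p210 (-0.47 ± 0.091, adjusted p = 0.014). In the interaction 0 of the 34 passed, with 4 at an unadjusted p under 0.05, 30 above 0 and a median of 0.14. Of 11 DREAM and MuvB subunit genes, 1 fell in untransformed KO, Rbl1, which encodes p107 (-0.48 ± 0.071, adjusted p = 0.00502), and it was also lower in KO p210 (-0.41 ± 0.070, adjusted p = 0.00816).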

How the data were processed

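RNA of 14 libraries was read as 50 bp single ends after SENSE mRNA-Seq preparation, per the labels' protocols. The authors processed reads with Trimmomatic, STAR and featureCounts on GRCm38 (mm10), per the submitters' processing notes. The sources used here do not give versions of the first 2. Raw counts per gene, as deposited, were made by featureCounts 1.5.1 in reverse-stranded mode (-s 2) against GENCODE M13, per the file headers. TPM values, deposited in the next column, differ from values recomputed from counts and lengths by at most 0.049, and were used only to rank levels. Of 50686 genes, 50376 received a symbol from a table of GENCODE M21 gene names.

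The test was that of edgeR 4.0.16 in R 4.3.3 on raw counts (robust quasi-likelihood F-test, TMM scaling, filterByExpr with minimum count 10 and total 15, Benjamini-Hochberg over 14512 genes, threshold 0.05) in 1 fit of 4 group means with 5 contrasts. SE is the absolute log2 fold change divided by the root of F. The procedure was also run on simulated data with the same dispersion for every gene, which did not cover the interaction. DESeq2 1.42.0, limma-voom (limma 3.58.1), other scalings, no filter, blocks, codes, sequencing runs and left-out libraries were alternatives. Promoter windows are RefSeq's (GRCm38.p6). The members and lists were chosen with earlier results of these data known. Named with values in every library were textbook members of each role, the members with the smallest adjusted p in the interaction, and Ncapg, which was added after its values were seen. Other members were named where they passed a test or had high levels, and genes of other lists by smallest adjusted p.

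Code and letter of the description were read as 1 line, present in both states for 6 lines, and p210 and untransformed libraries of a line were taken as paired on that reading alone. Deviations from group means correlated at -0.033 to 0.14 within lines, and at -0.092 to 0.14 between same-numbered libraries of the 2 genotypes. No member had fewer than 243 counts in any library, and the part of counting error in the spread was not tested.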

Additional observations from a re-analysis of the deposited data

Results flagged for a closer look

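Of 104 sets of 4 libraries examined (each of the 52 genes in KO p210 and in WT untransformed), 6 held a library farther from its nearest neighbour than the 95% critical value of Dixon's ratio allows, about the 1 in 20 that chance gives. In WT untransformed replicate 3, Cdc25b was at 99.82 CPM (others 61.95 to 64.85), Cdca8 at 166.2 CPM (136.5 to 140.8), Spc25 at 54.19 CPM (45.11 to 46.22) and Kif11 at 343.2 CPM (280 to 286.5), each above the rest. This library also had the lowest myeloid marker level. Hmmr was low in WT untransformed replicate 4, at 68.46 CPM (others 82.22 to 82.91). Kif18b was high in KO p210 replicate 3, at 66.17 CPM (43.51 to 46.54). The causes were not tested.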

How the results depend on the processing

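For KO against WT untransformed cells (26 genes called), 14 were called with no filter on low counts and 14 with sequencing runs as a term, 9 with both the library labelled KO p210 replicate 2 and WT untransformed replicate 3 left out, 11 in the first code and 0 in the second. Leaving out 1 library gave 2 to 35. For KO against WT p210 (0 called), the first code gave 2, and leaving out 1 library 0 to 0. For p210 in KO (15 called), the count was 9 with library size scaling, 9 with no filter, 6 with the line as replicate block and 0 in the second code, and 7 to 17 with 1 library left out. For p210 in WT (29 called), it was 19 without the same 2 libraries, 18 with the line block, 18 in the first code, 4 in the second and 14 with sequencing runs as a term, and 22 to 32 with 1 library left out. The interaction (0 called) gave 7 with DESeq2 and 0 to 0 with 1 library left out. Cdc25b in KO against WT p210 reversed to 0.097 in the second code.

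Blocking by replicate number gave 21, 0, 14, 22 and 0 calls in the same order of comparisons. The correlations of same-numbered libraries do not all pass 0.1, and those within lines do not either. Between libraries of the same state and code, but of the other genotype and another number, correlations ran from -0.259 to 0.35. The correlations therefore do not decide whether the number or the line is a pairing. Of calls of single genes over all alternatives, 541 of 702 held for KO against WT untransformed, 319 of 420 for p210 in KO and 668 of 812 for p210 in WT. Ccna2 and Birc5 kept their fall with p210 in WT in all 28 alternatives. The medians of the set ran from -0.50 to -0.36 for KO against WT untransformed, 0.023 to 0.21 for p210 in KO, -0.50 to -0.20 for p210 in WT, and 0.24 to 0.59 for the interaction. The causes were not tested. Second-code fits rest on 1 or 2 libraries a group, and a lone library is assumed to vary like the others.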
